A study of Mus musculus with 8 samples.

Results

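Histone chaperones escort histones between the cytoplasm and DNA, and the 10 genes described here, Npm1, Npm2, Npm3, Asf1a, Asf1b, Chaf1a, Chaf1b, Hira, Nap1l1 and Nasp, were chosen by name as a histone chaperone and nucleoplasmin set that includes the oocyte form Npm2. All 10 were found among the 37310 genes of the table by matching Ensembl identifiers to mouse symbols, and all 10 reached 1 FPKM in 4 or more libraries, the filter for testing. The study sequenced polyadenylated RNA of mouse embryos at the 2-cell stage, grown from fertilized eggs in G1 culture medium. In the treated group (4 libraries) the medium held 6 µM TCC (triclocarban, an antibacterial compound of soaps and personal care products), and in the control group (4 libraries) an equal volume of its solvent DMSO. Strain, age of the embryos in hours, number of embryos per library and any batch are not stated in the labels, nor whether replicate libraries were drawn from separate cultures, so the p-values refer to library-to-library spread, and this may be technical. The comparison addressed whether exposure disturbs the passage from maternal to embryonic control and epigenetic modification, as the series title puts it.

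Newly made H3-H4 dimers are held by NASP, passed to ASF1 and from there handed to the CAF-1 complex, which places them behind replication forks, or to the HIRA complex, which places the variant H3.3 without replication. H2A-H2B dimers are carried by other proteins, among them NAP1L1 and the nucleoplasmins. In the mouse egg and early embryo these proteins act on stored and newly made histones while protamines leave the paternal genome, and the oocyte stocks many of their transcripts before fertilization. The 2-cell stage is the time at which the embryo's own genome becomes widely active in this species and stored oocyte transcripts are being cleared.

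FPKM is the number of fragments per kilobase of transcript, scaled to each library's own mapped fragments, so a value is a share of the library's RNA. In RNA of whole embryos, fewer cells of a type and less RNA per cell cannot be told apart. Depth, estimated from the worth of 1 fragment, was 6900000 to 13600000 fragments in the TCC libraries, with TCC library 2 the lowest, and 11300000 to 14800000 in the controls. Genes with at least 1 FPKM numbered 11788 to 11957 with TCC and 12828 to 13541 in controls, and mitochondrially encoded genes held 11.1 to 17.6% of the FPKM sum with TCC and 16.6 to 24.3% in controls. The 7 matched 2-cell markers were all detected, with a summed level of 700.6, 334.0, 891.5 and 842.4 FPKM in TCC libraries 1 to 4 and 649.3 to 843.8 FPKM in controls. Among them Zfp352 and Tdpoz4 were lower with TCC without overlap (47.83 to 139.22 and 7.39 to 24.31 FPKM with TCC, 193.97 to 250.63 and 37.54 to 68.79 FPKM in controls), Usp17le was higher without overlap (15.44 to 23.19 FPKM with TCC, 3.67 to 6.03 FPKM in controls), and the groups overlapped for the other 4. The 7 oocyte-derived markers, all detected, summed to 2329.3, 2059.6, 2053.7 and 2035.9 FPKM in TCC libraries 1 to 4, against 1498.8, 1287.1, 513.3 and 494.8 FPKM in controls 1 to 4. The largest part of each sum was Bmp15. Of these 7 markers, 4 (Bmp15, Ooep, Zar1 and Nlrp5) were higher with TCC without overlap, as were 10.2% of all genes tested. Zp3 was lower without overlap (12.46 to 33.86 FPKM with TCC, 49.01 to 60.83 FPKM in controls), as were 30.0% of all genes tested, and Gdf9 and Mos overlapped. By the oocyte-derived sums the controls thus lay in pairs, 1 with 2 and 3 with 4, so the changes of the 10 genes are also given with a pair left out. These pairs were taken from the values and not from a label, so the spread within a pair can be small by selection. All p-values against a single pair are therefore descriptive only. Of 12 cumulus and granulosa cell markers 3 averaged at least 1 FPKM and Amh and Inha were listed at 0 in every library (list sum 9.45 to 18.3 FPKM with TCC, 5.07 to 9.85 in controls). In this list Cyp19a1 was higher with TCC without overlap, Star and Tnfaip6 were lower without overlap, and the other 9 overlapped. Star was below 1 FPKM in every library (0.13 to 0.38 FPKM with TCC, 0.41 to 0.62 FPKM in controls). Sperm (1 of 5 averaging at least 1 FPKM), blood (2 of 4, with Hbb-bs listed at 0) and blastocyst (2 of 5) lists summed to 7.06 to 10.4, 7.01 to 32 and 2.36 to 6.48 FPKM with TCC, and to 1.12 to 5.8, 38.3 to 69.3 and 2.92 to 6.16 FPKM in controls. The sperm sum was mostly Prm2, which was higher with TCC without overlap, and the blood sum mostly Hba-a1, which was lower without overlap. The groups overlapped for the other genes of these lists. The part of these marker lists in the results below was not tested.

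With TCC, 3 of the 10 chaperone genes rose, Npm2, Asf1a and Asf1b, and 2 fell, Chaf1b and Hira, while Npm1, Npm3, Chaf1a, Nasp and Nap1l1 did not pass the threshold (limma on log2(FPKM + 1), Benjamini-Hochberg adjusted p under 0.05 over 12941 genes). Of all genes tested, 11.3% rose and 30.8% fell, together 42.1%, so the share of chaperone genes called, 5 of 10, was close to that of the whole table. The same 5 genes were those whose TCC and control libraries did not overlap, against 10.2% of all genes higher and 30.0% lower without overlap, together 40.2%. The median change of the 10 genes was 0.35 on the log2(FPKM + 1) scale, against -0.19 for all genes tested. The median of all genes moved from -0.19 to 0.06 after median-of-ratios scaling and to 0.13 after quantile normalization, so the direction of small changes depends on the scaling. The size of larger ones moved as well. Under these scalings the change of Npm1, 0.73 as deposited, was 1.04 and 0.41, and that of Hira, -1.38 as deposited, was -1.12 and -0.94. Against controls 3 and 4 alone 4 members rose and 3 fell, while of the 12941 genes tested 2838 rose and 4213 fell. Against controls 1 and 2 alone 2 members rose, Npm1 and Npm2, and 0 fell by the limma test, while 695 of all genes rose and 3243 fell. In that setting 2 members were lower at an unadjusted p under 0.05 by limma, and the share of all genes at that threshold is not given here. Against all 4 controls 6483 of the 12941 genes, and 6 of the 10 members, were at an unadjusted p under 0.05 in either direction. The count of 2 is therefore not read as a result about the members. The number of calls thus moved with the controls in the whole table as well.

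**Figure D1:**
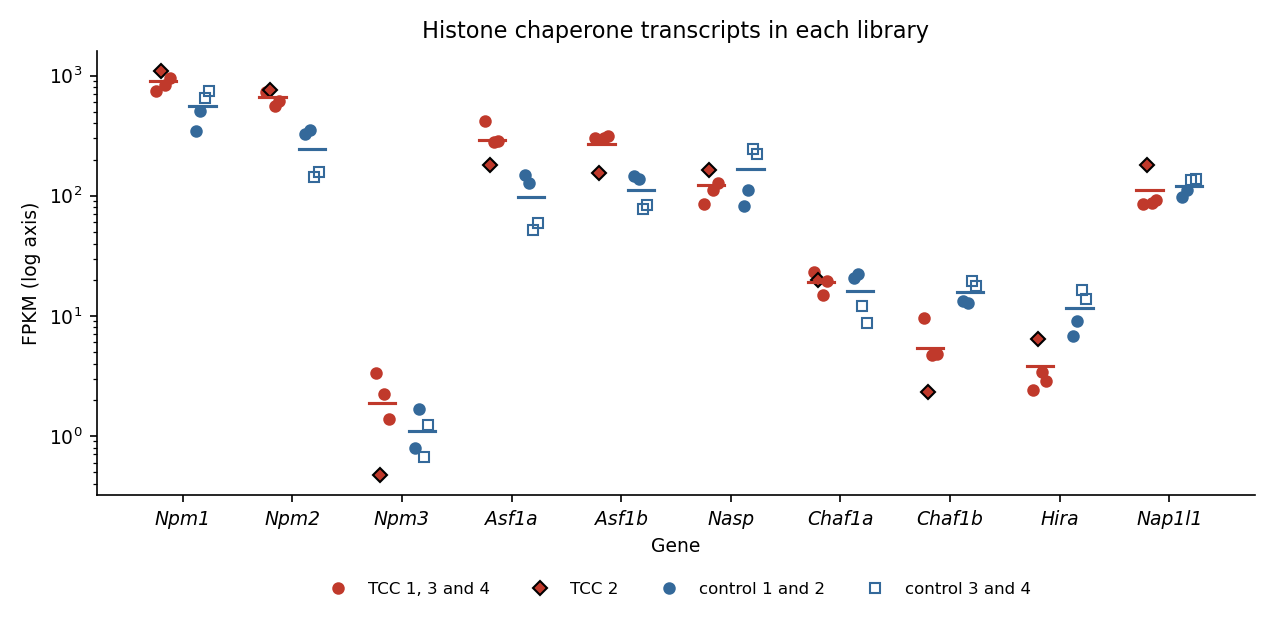
FPKM (log axis) of the 10 histone chaperone genes in each library, with TCC libraries left of control libraries and a bar at each group's arithmetic mean. TCC and control libraries are apart for Npm2, Asf1a, Asf1b, Chaf1b and Hira, and controls 1 and 2 (filled circles) lie apart from controls 3 and 4 (open squares) for every gene but Npm3.

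The genes spanned a wide range of levels per length. In TCC embryos the order of mean FPKM was Npm1 (907.9), Npm2 (666.4), Asf1a (290.8), Asf1b (268.8), Nasp (122.0), Nap1l1 (111.0), Chaf1a (19.3), Chaf1b (5.38), Hira (3.8) and Npm3 (1.86). In control embryos it was Npm1 (562.3), Npm2 (245.3), Nasp (165.7), Nap1l1 (120.8), Asf1b (110.8), Asf1a (97.5), Chaf1a (15.9), Chaf1b (15.8), Hira (11.5) and Npm3 (1.09). With TCC the libraries of neighbours in this order were apart between Npm2 and Asf1a, between Nap1l1 and Chaf1a and between Chaf1a and Chaf1b, and overlapped elsewhere. In controls they were apart between Asf1a and Chaf1a and between Hira and Npm3 only. Among the 12941 genes tested, Npm1 ranked 60th by mean FPKM with TCC and 82nd in controls, and Npm2 95th with TCC and 246th in controls. The 10 genes held 0.442, 0.537, 0.391 and 0.429% of the FPKM sum in TCC libraries 1 to 4, against 0.223, 0.256, 0.230 and 0.240% in controls 1 to 4, and most of this came from Npm1 and Npm2.

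Npm2 encodes the oocyte nucleoplasmin, a histone-binding protein known in the mouse for organizing chromatin and the nucleolus in eggs and early embryos (ENSMUSG00000047911.5, chromosome 14, 70647302 to 70659244, minus strand, GRCm38). It was at 730.1, 763.2, 560.1 and 612.2 FPKM in TCC libraries 1 to 4, against 326.5, 353.5, 142.6 and 158.6 FPKM in controls 1 to 4. Every TCC library lay above every control, and controls 1 and 2 lay between the TCC libraries and controls 3 and 4. Npm2 averaged 666.4 ± 96 FPKM with TCC and 245.3 ± 110.1 FPKM in controls (SD, n = 4 each), which is 2.72 times the control level. Its log2(FPKM + 1) change was 1.54 with a standard error of 0.34 and a limma adjusted p of 0.00341. The change was 2.13 against controls 3 and 4 and 0.96 against controls 1 and 2 (limma adjusted p = 0.000183 and 0.0174, descriptive only). Of the oocyte-derived markers, Bmp15, Ooep, Zar1 and Nlrp5 had the same order, with controls 1 and 2 between the TCC libraries and controls 3 and 4. Zp3, Gdf9 and Mos did not. Npm2 shares exon sequence with the neighbouring gene Xpo7 on the same strand, which was at 0.908 to 1.45 FPKM with TCC and 1.54 to 1.78 FPKM in controls.

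Npm1 encodes nucleophosmin, an abundant nucleolar protein of ribosome assembly that also binds histones (ENSMUSG00000057113.7, chromosome 11, 33152287 to 33163206, minus strand). It was at 744.4, 1093.8, 839.7 and 953.5 FPKM in TCC libraries 1 to 4, against 348.1, 502.8, 651.1 and 747.3 FPKM in controls 1 to 4. The groups overlapped narrowly, at TCC library 1 and control 4. Here controls 3 and 4 lay nearer the TCC libraries, the opposite of Npm2. The mean was 907.9 ± 150.6 FPKM with TCC and 562.3 ± 174.7 FPKM in controls (SD, n = 4 each). The log2 change was 0.73 (95% confidence interval 0.09 to 1.37) and missed the threshold (limma adjusted p = 0.0635). Against controls 1 and 2 the change was 1.10 and against controls 3 and 4 it was 0.36 (limma adjusted p = 0.0162 and 0.233, descriptive only). The change against all 4 controls passed after rescaling every library to the same FPKM sum (adjusted p = 0.0366) or by median of ratios (adjusted p = 0.023). Npm1 has processed pseudogenes, and how reads that match several places were counted is not stated, so its level is uncertain.

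Npm3, a small nuclear relative of the other nucleoplasmins, was near the limit of measurement (ENSMUSG00000056209.7, chromosome 19, 45747734 to 45749591, minus strand). It was at 3.37, 0.47, 2.24 and 1.38 FPKM in TCC libraries 1 to 4, against 0.80, 1.68, 0.67 and 1.23 FPKM in controls 1 to 4. The groups overlapped, and TCC library 2 was the lowest of all 8. These levels stand for roughly 4 to 54 fragments per library, so the gene's error is large. Its log2 change was 0.37 (95% confidence interval -0.35 to 1.08, limma adjusted p = 0.394), and it was 0.65 without TCC library 2 (adjusted p = 0.0768). An antisense gene, Gm15491, overlaps its exons on the opposite strand and was at 0.734 to 4.54 FPKM with TCC and 0 to 5.9 FPKM in controls, and no strand setting is given that would tell their reads apart.

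In addition, 5 ratios of 2 genes within a library were compared. Npm2 made up 49.4, 41.1, 39.9 and 39.1% of the summed FPKM of the 3 nucleoplasmins in TCC libraries 1 to 4, against 48.3, 41.2, 18.0 and 17.5% in controls 1 to 4. The oocyte form thus held a like share in the TCC libraries and in controls 1 and 2, and a lower one in controls 3 and 4. The log2 ratio of Npm2 over Npm1 was -0.44 ± 0.28 with TCC and -1.26 ± 1.12 in controls (SD, n = 4 each). Its difference of 0.81 did not pass a two-sided exact test that permuted the libraries in all 70 ways (p = 0.343, 0.429 adjusted over the 5 ratios), and it was -0.14 against controls 1 and 2. The log2 ratio of Npm3 over Npm1 differed by -0.22 (exact permutation p = 0.83), and its sign turned to 0.38 without TCC library 2.

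ASF1A and ASF1B are the carriers that pass H3-H4 dimers on to CAF-1 or HIRA, and of these ASF1B is the form known for its ties to cell proliferation. Both transcripts rose with TCC. Asf1a (ENSMUSG00000019857.6, chromosome 10, 53596757 to 53609225, plus strand) was at 419.8, 181.5, 278.2 and 283.5 FPKM in TCC libraries 1 to 4, against 150.1, 128.3, 51.96 and 59.51 FPKM in controls 1 to 4. Asf1b (ENSMUSG00000005470.8, chromosome 8, 83955507 to 83970197, plus strand) was at 302.6, 155.9, 303.1 and 313.6 FPKM in TCC libraries 1 to 4, against 145.0, 137.0, 77.83 and 83.41 FPKM in controls 1 to 4. For both genes the TCC libraries lay above the controls without overlap, TCC library 2 was the lowest treated one, and controls 1 and 2 lay above controls 3 and 4. Asf1a averaged 290.8 ± 98 FPKM with TCC and 97.5 ± 49.1 FPKM in controls, 2.98 times the control level, with a log2 change of 1.65, a standard error of 0.39 and a limma adjusted p of 0.00554. Asf1b averaged 268.8 ± 75.4 FPKM with TCC and 110.8 ± 35.1 FPKM in controls (SD, n = 4 each), 2.43 times the control level, with a log2 change of 1.27, a standard error of 0.32 and an adjusted p of 0.00807. Against controls 1 and 2 alone the changes were 1.00 for Asf1a and 0.87 for Asf1b (limma adjusted p = 0.0532 and 0.0796, descriptive only). Against controls 3 and 4 alone they were 2.30 and 1.67. A test for a change beyond 0.5 log2 units kept Asf1a and not Asf1b (adjusted p = 0.0687).

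The log2 ratio of Asf1b over Asf1a was -0.11 ± 0.30 with TCC and 0.28 ± 0.30 in controls (SD, n = 4 each). The difference of -0.38 did not pass (exact permutation p = 0.171, 0.286 adjusted), so no shift between the forms was detectable with 4 libraries a group. Exons of Asf1a overlap Mcm9 on the opposite strand, which was at 2.01 to 6.71 FPKM with TCC and 4.38 to 6.46 FPKM in controls, far below Asf1a.

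The promoters of Asf1a and Asf1b are shown because these transcripts moved together (RefSeq, GRCm38.p6, 250 bases before to 50 after the start, on the plus strand, at chr10:53596711-53597010 and chr8:83955444-83955743), and capitals mark CCAAT boxes, written CCAAT or, on the other strand, ATTGG.
Asf1a: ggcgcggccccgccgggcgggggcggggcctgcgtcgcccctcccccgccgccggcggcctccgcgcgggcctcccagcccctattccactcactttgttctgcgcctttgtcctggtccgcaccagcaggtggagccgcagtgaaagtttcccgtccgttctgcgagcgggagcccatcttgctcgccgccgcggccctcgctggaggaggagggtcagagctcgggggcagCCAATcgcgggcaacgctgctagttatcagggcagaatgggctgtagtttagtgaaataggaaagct
Asf1b: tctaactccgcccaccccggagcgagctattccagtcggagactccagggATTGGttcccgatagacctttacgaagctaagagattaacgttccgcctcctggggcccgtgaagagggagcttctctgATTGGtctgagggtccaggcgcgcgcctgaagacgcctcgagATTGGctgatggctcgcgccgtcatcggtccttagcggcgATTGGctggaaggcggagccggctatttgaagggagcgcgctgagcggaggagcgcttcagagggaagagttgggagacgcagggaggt
The Asf1b window held 4 CCAAT boxes, which begin 200, 121, 79 and 39 bases before the start, and the Asf1a window held 1, which begins 17 bases before it. These distances are from the RefSeq start. The gene coordinates given above, from GENCODE, begin earlier, inside these windows, at 53596757 for Asf1a and 83955507 for Asf1b. Distances from those starts would differ. A CCAAT box was present in 37.4% of all 32851 promoter windows of this length and in 5 of the 8 windows found for the chaperone genes (Npm1 and Npm2 were not matched). Neither window held an E2F motif (TTCCCGC or TTGGCGC, either strand) or an E-box (CACGTG).

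CHAF1A and CHAF1B are the large and middle subunits of CAF-1, the complex that places H3-H4 onto newly replicated DNA. Chaf1b fell with TCC and Chaf1a did not pass the threshold. Chaf1a (ENSMUSG00000002835.7, chromosome 17, 56040439 to 56072289, plus strand) was at 23.14, 19.69, 14.97 and 19.31 FPKM in TCC libraries 1 to 4, against 20.54, 22.38, 12.17 and 8.66 FPKM in controls 1 to 4. The groups overlapped, and controls 1 and 2 were at the level of the TCC libraries. Its log2 change was 0.33 (95% confidence interval -0.37 to 1.03, limma adjusted p = 0.43). The direction depended on the controls, with 0.83 against controls 3 and 4 and -0.16 against controls 1 and 2 (limma adjusted p = 0.029 and 0.68, descriptive only). Exons of Chaf1a overlap those of Ubxn6 on the opposite strand, which was at 15.3 to 33.1 FPKM with TCC and 20.1 to 27.4 FPKM in controls, a level similar to that of Chaf1a, so reads of the overlap make the value of Chaf1a uncertain.

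Chaf1b (ENSMUSG00000022945.5, chromosome 16, 93883901 to 93906115, plus strand) was at 9.66, 2.34, 4.70 and 4.80 FPKM in TCC libraries 1 to 4, against 13.25, 12.79, 19.43 and 17.56 FPKM in controls 1 to 4. All TCC libraries lay below all controls, and controls 1 and 2 lay nearer to them than controls 3 and 4. It averaged 5.38 ± 3.08 FPKM with TCC and 15.8 ± 3.26 FPKM in controls (SD, n = 4 each), 0.341 times the control level. The log2 change was -1.50 with a standard error of 0.35 and a limma adjusted p of 0.0049. It was -1.73 against controls 3 and 4 and -1.26 against controls 1 and 2 (limma adjusted p = 0.053 for the latter, descriptive only). The log2 ratio of Chaf1b over Chaf1a was -1.25, -3.02, -1.65 and -1.98 in TCC libraries 1 to 4, against -0.63, -0.80, 0.67 and 1.01 in controls 1 to 4. The groups did not overlap, and the difference of -2.04 had an exact permutation p of 0.0286, the smallest that 70 assignments give. After adjustment over the 5 ratios it was 0.0714, which missed the threshold. With only this ratio and Hira over Chaf1a at the smallest p, neither could pass after adjustment, whatever the size of its difference.

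The promoters of the CAF-1 genes are shown because Chaf1b fell, with that of its partner for comparison (RefSeq, GRCm38.p6, plus strand, chr17:56040166-56040465 and chr16:93883651-93883950), with E2F motifs (TTCCCGC or, on the other strand, GCGGGAA), the E-box CACGTG and CCAAT boxes in capitals.
Chaf1a: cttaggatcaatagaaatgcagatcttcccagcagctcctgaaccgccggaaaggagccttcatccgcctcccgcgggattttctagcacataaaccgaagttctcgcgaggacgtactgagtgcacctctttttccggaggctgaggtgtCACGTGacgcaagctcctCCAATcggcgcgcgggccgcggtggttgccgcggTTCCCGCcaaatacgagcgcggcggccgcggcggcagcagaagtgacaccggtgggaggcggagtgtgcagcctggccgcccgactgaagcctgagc
Chaf1b: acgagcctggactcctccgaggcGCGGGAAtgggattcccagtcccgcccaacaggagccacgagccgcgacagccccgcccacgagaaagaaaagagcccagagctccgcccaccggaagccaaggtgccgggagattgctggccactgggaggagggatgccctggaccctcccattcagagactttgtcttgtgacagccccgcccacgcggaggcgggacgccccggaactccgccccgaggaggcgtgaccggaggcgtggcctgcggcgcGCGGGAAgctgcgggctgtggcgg
The Chaf1a window held 1 E2F motif that begins 47 bases before the start, 1 E-box 99 bases before it and 1 CCAAT box 81 bases before it. The Chaf1b window held 2 E2F motifs, one beginning 227 bases before the start and one at base 27 after it, and no E-box or CCAAT box. An E2F motif was present in 6.8% of all windows and in 3 of the 8 chaperone windows, the third being that of Nap1l1, and an E-box in 7.2% of all windows and in 1 of the 8. The E2F motif was thus present in the windows of both CAF-1 genes, of which Chaf1b fell and Chaf1a did not pass the threshold, and of Nap1l1, which did not pass it either.

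HIRA is the subunit that gives its name to the complex for placing H3.3 outside replication, and in the mouse zygote maternal HIRA is known to load H3.3 onto the paternal genome. Hira (ENSMUSG00000022702.9, chromosome 16, 18877037 to 18970309, plus strand) fell with TCC. It was at 2.42, 6.47, 3.43 and 2.89 FPKM in TCC libraries 1 to 4, against 6.79, 9.0, 16.52 and 13.87 FPKM in controls 1 to 4. All TCC libraries lay below all controls, but TCC library 2 came close to control 1. The mean was 3.8 ± 1.83 FPKM with TCC and 11.5 ± 4.45 FPKM in controls (SD, n = 4 each), 0.33 times the control level. The log2 change was -1.38 with a standard error of 0.34 and a limma adjusted p of 0.00718. It was -1.82 against controls 3 and 4 and -0.95 against controls 1 and 2 (limma adjusted p = 0.0744 for the latter, descriptive only). With quantile normalization and all 4 controls it was -0.94 (limma adjusted p = 0.0526). The log2 ratio of Hira over Chaf1a was -2.40 ± 0.70 with TCC and -0.44 ± 1.16 in controls (SD, n = 4 each), without overlap between the groups. The difference of -1.95 had an exact permutation p of 0.0286, again the smallest possible, and 0.0714 after adjustment. As for Chaf1b over Chaf1a, it could not pass whatever its size. A test for a change beyond 0.5 log2 units did not keep Hira (adjusted p = 0.0537). Exons of the gene Gm28539 overlap those of Hira on the same strand. Gm28539 was not analysed here and no level is given for it, so reads of the overlap make the value of Hira uncertain.

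NASP protects the soluble store of H3 and H4 and also binds linker histones. Nasp (ENSMUSG00000028693.8, chromosome 4, 116601052 to 116627941, minus strand) was at 84.66, 162.7, 112.0 and 128.5 FPKM in TCC libraries 1 to 4, against 82.68, 112.2, 245.8 and 222.1 FPKM in controls 1 to 4. The TCC libraries lay among controls 1 and 2 or above them, and below controls 3 and 4. Its log2 change was -0.34 (95% confidence interval -1.15 to 0.48, limma adjusted p = 0.502). Against controls 3 and 4 the change was -0.97 and against controls 1 and 2 it was 0.30 (limma adjusted p = 0.0212 and 0.515, descriptive only).

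NAP1L1 carries H2A-H2B dimers and takes part in their placement and removal. Nap1l1 (ENSMUSG00000058799.7, chromosome 10, 111473223 to 111498150, plus strand) was at 85.91, 179.5, 86.47 and 92.01 FPKM in TCC libraries 1 to 4, against 97.75, 111.0, 135.4 and 139.1 FPKM in controls 1 to 4. TCC libraries 1, 3 and 4 lay below every control and TCC library 2 above every control. Its log2 change was -0.18 (95% confidence interval -0.83 to 0.46, limma adjusted p = 0.651). It was -0.44 without TCC library 2 (adjusted p = 0.111) and 0.12 after median-of-ratios scaling, so no direction is given for it.

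**Figure D2:**
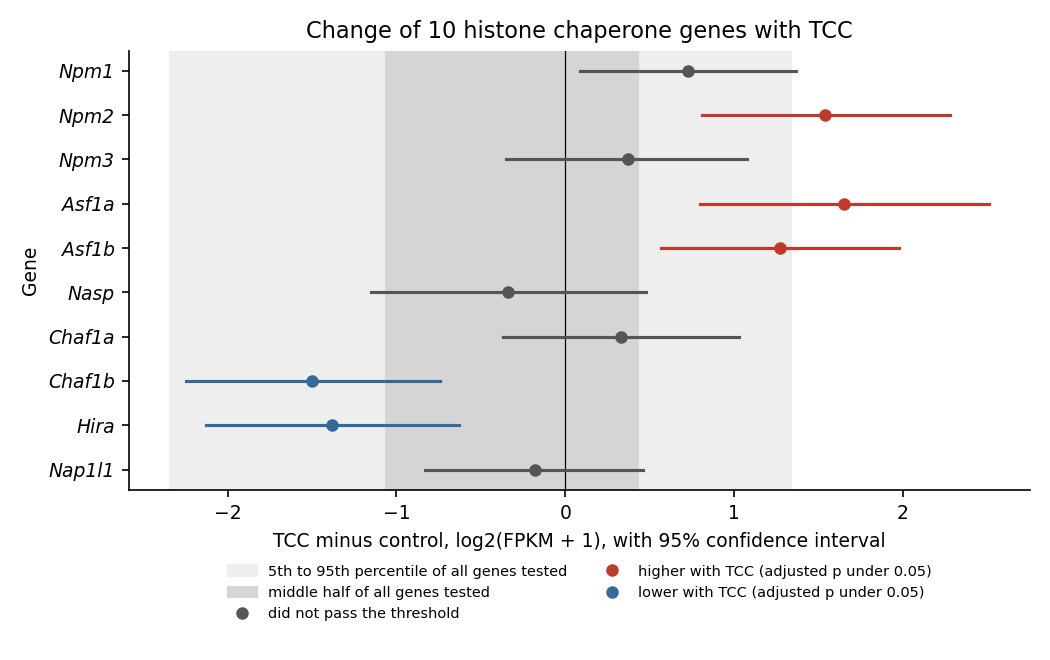
TCC minus control on the log2(FPKM + 1) scale with 95% confidence intervals (limma, 4 libraries a group) for the 10 histone chaperone genes, over the middle 50% and the 5th to 95th percentile of all genes tested. Npm2 (1.54) and Asf1a (1.65) lie above the 95th percentile (1.34), while Chaf1b (-1.50) and Hira (-1.38) lie below the 25th (-1.06) and above the 5th (-2.34).

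Set against the 12941 genes tested, the changes of Asf1a, Npm2 and Asf1b stood at the 97.5th, 96.7th and 94.3rd percentile. Those of Chaf1b and Hira stood at the 15.8th and 18.0th percentile, where many genes of the table lie. For 8 of the 10 genes controls 1 and 2 differed from controls 3 and 4 in the direction in which the TCC mean differed from the control mean. The exceptions were Npm1, for which the pairs differed in the other direction, and Npm3, for which the pairs overlapped. For Npm2, Asf1a and Asf1b the TCC mean was 1.96, 2.09 and 1.91 times that of controls 1 and 2, and 4.43, 5.22 and 3.33 times that of controls 3 and 4. For Chaf1b and Hira it was 0.413 and 0.482 times that of controls 1 and 2, and 0.291 and 0.25 times that of controls 3 and 4. What separated the pairs of controls is not given in the labels.

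**Figure D3:**
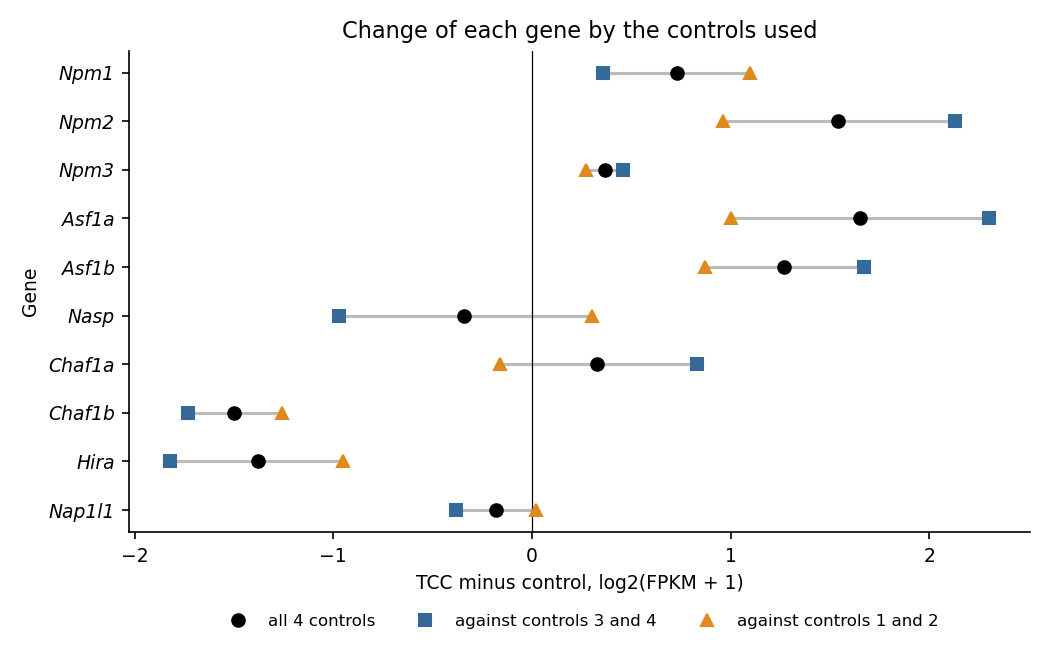
TCC minus control on the log2(FPKM + 1) scale for each of the 10 genes against all 4 controls (circles), controls 3 and 4 (squares) and controls 1 and 2 (triangles). Nasp, Chaf1a and Nap1l1 lie on opposite sides of 0 against the pairs, and Npm1 is larger against controls 1 and 2 (1.10) than against controls 3 and 4 (0.36).

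**Figure D4:**
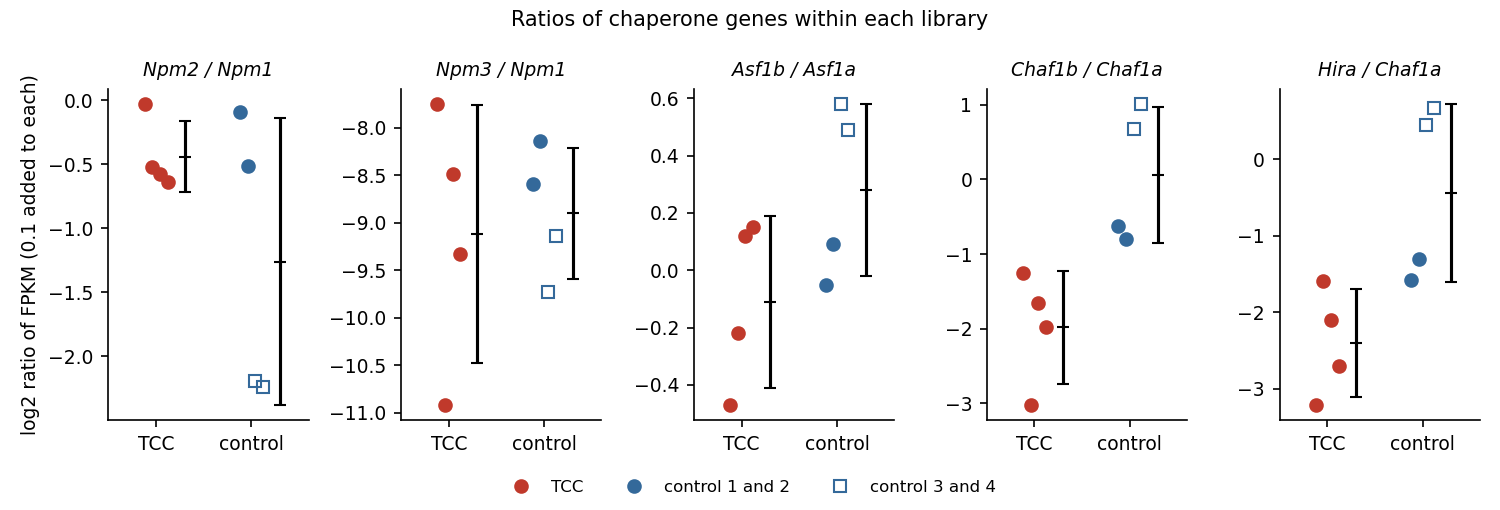
Log2 ratio of FPKM (0.1 added to each) of 2 chaperone genes within each library, with TCC left of control and the mean ± SD beside the points (n = 4 each). The groups do not overlap for Chaf1b over Chaf1a and for Hira over Chaf1a, and controls 3 and 4 lie apart from controls 1 and 2 in every panel.

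Beyond these 10 genes, 35 other genes for histone chaperones and histone exchange were listed and 33 of them were tested. Of these 5 rose and 8 fell, and the median change was -0.21, close to the -0.19 of all genes tested, of which 11.3% rose and 30.8% fell. The split of calls depended on the scaling: 7 rose and 6 fell after median-of-ratios scaling, and 8 rose and 5 fell after quantile normalization. Without controls 1 and 2, 6 rose and 10 fell, and without controls 3 and 4, 4 rose and 5 fell. Among all genes tested these 2 settings gave 2838 rises and 4213 falls, and 695 rises and 3243 falls. In the partners of HIRA and the H3.3 chaperones ATRX, DAXX and DEK, 0 of 6 genes passed the limma threshold. Of these 6, 1, Cabin1, was at an unadjusted p under 0.05 with a log2 change of -0.72, as were 6483 of all 12941 genes tested at that p in either direction. The HIRA partner gene Ubn1 was at 10.64, 48.68, 9.46 and 12.53 FPKM in TCC libraries 1 to 4, against 21.14, 31.45, 25.66 and 25.85 FPKM in controls 1 to 4. TCC library 2 thus stood above all controls and the other TCC libraries below them.

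Among partners of CAF-1 and other carriers of H3-H4, 2 of 11 rose and 3 fell, where 11.3% of all genes tested rose and 30.8% fell. Aplf, whose protein joins DNA end repair and binds histones, was at 21.12, 12.41, 15.74 and 17.27 FPKM in TCC libraries 1 to 4, against 5.94, 5.13, 1.66 and 2.00 FPKM in controls 1 to 4, a log2 change of 2.02 (limma adjusted p = 0.000962). Rbbp7, an H4-binding protein shared by several chromatin complexes, was at 774.3, 267.4, 1023.0 and 819.4 FPKM with TCC, against 183.8, 188.4, 238.6 and 184.5 FPKM in controls, a log2 change of 1.70 (adjusted p = 0.00426). Its close relative Rbbp4, the histone-binding subunit of CAF-1, averaged 8.98 ± 1.78 FPKM with TCC and 14.3 ± 5 FPKM in controls (SD, n = 4 each) with a log2 change of -0.57 that missed the threshold (adjusted p = 0.137). Tonsl, which recognizes newly placed H4 behind the fork, changed by -1.22 (adjusted p = 0.00129) and the importin gene Ipo4, whose protein brings H3-H4 into the nucleus, by -1.53 (adjusted p = 0.00365). Cdan1, whose protein holds ASF1 in the cytoplasm, also fell, by 0.73 on the log2 scale (limma adjusted p = 0.0284). Its level was low, at 0.78, 1.93, 0.61 and 0.71 FPKM in TCC libraries 1 to 4, against 2.02 to 2.39 FPKM in controls. TCC library 2 came close to the controls.

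Of the FACT complex, which loosens nucleosomes for polymerases, Supt16 rose by 0.81 on the log2 scale (limma adjusted p = 0.0149), with 32.8 ± 4.74 FPKM with TCC and 18.1 ± 1.97 FPKM in controls (SD, n = 4 each). Its partner Ssrp1 had a log2 change of 0.29 and did not pass (adjusted p = 0.433). The elongation factor gene Supt6 fell, at -0.75. Among carriers of H2A-H2B and of H2A.Z, 2 of 9 tested rose and 2 fell, where 11.3% of all genes tested rose and 30.8% fell. Set, which encodes a histone chaperone and phosphatase inhibitor, was at 14.87, 17.07, 12.01 and 9.88 FPKM in TCC libraries 1 to 4, against 56.77, 59.45, 249.2 and 138.5 FPKM in controls 1 to 4, a log2 change of -2.89 (adjusted p = 0.000422). All TCC libraries lay below all controls, and nearer to controls 1 and 2. Anp32e, whose protein removes H2A.Z from nucleosomes, changed by -1.43 (adjusted p = 0.00976), while Vps72, whose protein brings H2A.Z to them, changed by 1.48 (adjusted p = 0.0161) and Anp32a, a relative of Anp32e, by 1.39 (adjusted p = 0.00206). The libraries of Anp32e and of Vps72 overlapped between the groups, and TCC library 2 was the one nearest the controls for both. Nap1l2 and Nap1l5, relatives of Nap1l1, were below the filter.

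The genes that place the centromeric variant CENP-A held the deepest fall of the list. Oip5, a subunit of the MIS18 complex that licenses this step, was at 6.98, 4.67, 4.84 and 3.71 FPKM in TCC libraries 1 to 4, against 54.05, 38.88, 66.01 and 90.35 FPKM in controls 1 to 4. The log2 change was -3.35 with a standard error of 0.30 and a limma adjusted p of 4.75e-05, at the 0.6th percentile of all genes tested. Hjurp, the chaperone of CENP-A itself, fell by 1.01 on the log2 scale (adjusted p = 0.0058), with 6.56 ± 0.668 FPKM with TCC and 14.3 ± 2.63 FPKM in controls (SD, n = 4 each). Mis18a had a log2 change of -1.02 and did not pass (adjusted p = 0.0621).

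**Figure D5:**
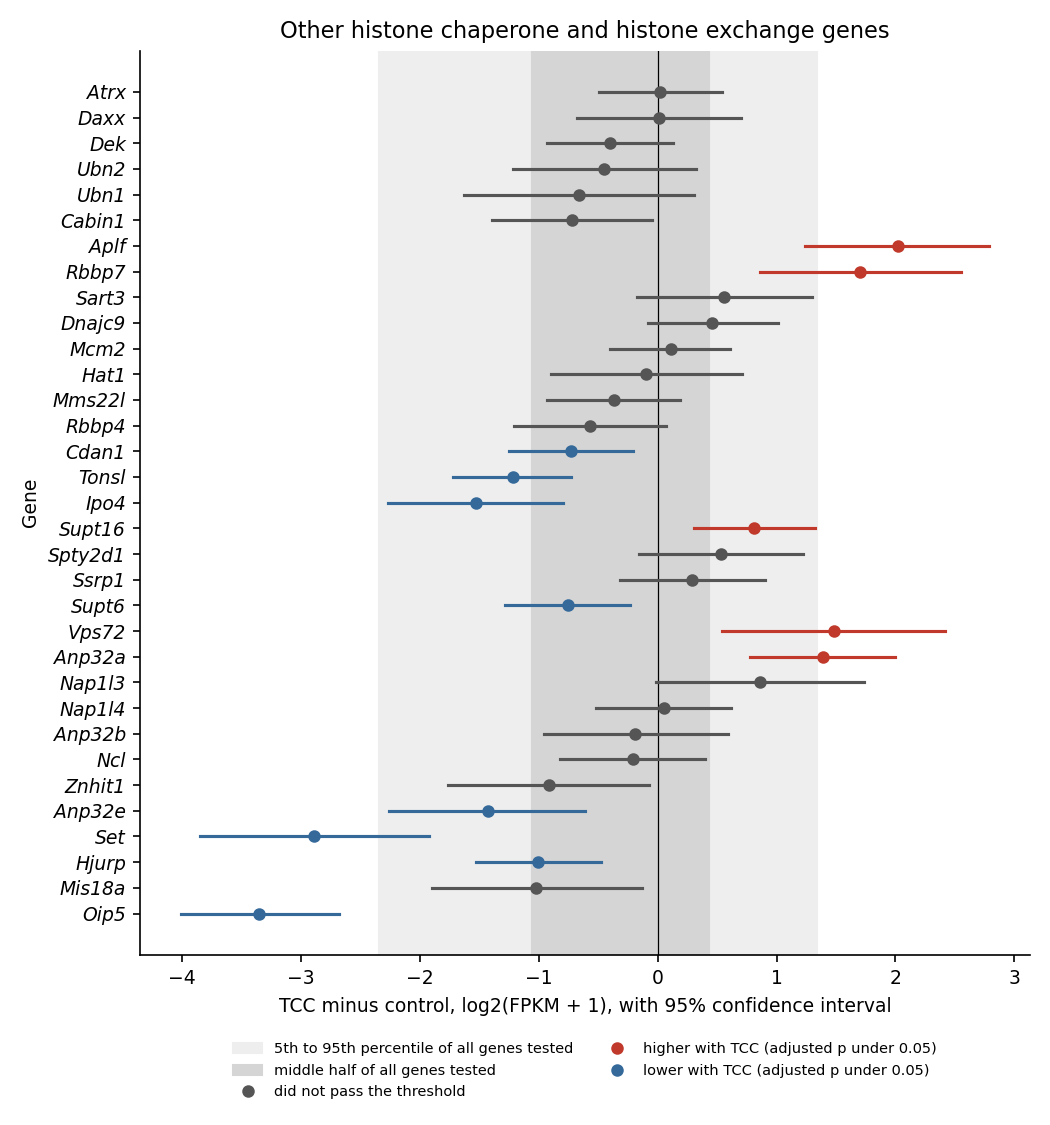
TCC minus control on the log2(FPKM + 1) scale with 95% confidence intervals (limma, 4 libraries a group) for the 33 tested genes of the wider chaperone list, ordered by role from H3.3 partners at the top to CENP-A genes at the bottom. Oip5 (-3.35) and Set (-2.89) lie below the 5th percentile of all genes tested (-2.34). Aplf (2.02), Rbbp7 (1.70), Vps72 (1.48) and Anp32a (1.39) lie above the 95th (1.34).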

How the data were processed

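Polyadenylated RNA was read in pairs of 150 bases. The labels' protocols describe both a kit for total RNA and a cDNA preamplification and do not say which served here. The authors' deposited table gives FPKM for each of 37310 genes in each library. The submitters' processing notes name STAR, StringTie, featureCounts, DESeq2 1.30.1 and mm10 without roles. Not given in the sources used here is how reads with several matches were treated, whether counting used strand, and which annotation release served. Symbols and coordinates came from GENCODE M21 (GRCm38, the assembly of mm10), which matched 32620 identifiers (87.4%). Promoters came from RefSeq (GRCm38.p6) and matched 8 members, on which motifs were counted by exact letters on both strands.

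The 12941 genes that reached 1 FPKM in 4 or more libraries were tested by limma 3.58.1 (lmFit, eBayes with trend) on log2(FPKM + 1) in R 4.3.3, treatment being the only term, with Benjamini-Hochberg adjustment over all genes and a threshold of 0.05. This scale understates changes of low genes such as Npm3. Log2 ratios of 2 genes (0.1 added to each FPKM) were compared by a two-sided exact test that permuted the libraries in all 70 ways. Python 3.11.15 with pandas 2.3.3 prepared the tables. The limma step was tested on simulated data.

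For the depth, FPKM was multiplied by exon length in low genes with a single transcript, and the commonest product was taken as 1 fragment. Only 9.0 to 10.2% of such low values lay within 0.02 of a whole number of fragments, so counts could not be recovered and no count test was run. The depths of the libraries and the fragment numbers per gene are both rough. No molecular identifiers are named, so fragments need not be independent molecules. No pair of libraries held identical values.

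The members, the wider list, the marker lists and the pairs of controls were chosen with earlier results of these data known. All 10 members are named with every library's value, and of the wider list up to 6 genes a direction by adjusted p, besides Rbbp4, Ssrp1, Ubn1, Cabin1, Cdan1, Supt6, Mis18a, Nap1l2 and Nap1l5, which were added as partners or to complete counts after their values were seen. Of the wider list as first drawn up, 1 gene is not reported here. The alternatives tried were other pseudocounts, filters, scalings, library weights and variance models, a minimum change, the replicate number as a block, and omission of each library or pair of controls.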

Additional observations from a re-analysis of the deposited data

Results flagged for a closer look

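Asf1b was at 155.9 FPKM in TCC library 2, far from the other TCC libraries, which were at 302.6, 303.1 and 313.6 FPKM. Nap1l1 was at 179.5 FPKM in TCC library 2, where the other TCC libraries were at 85.91, 86.47 and 92.01 FPKM. In each case the gap to the nearest library, divided by the range of the group, was above Dixon's 95% critical value for 4 libraries. Of 30 groups of 4 values checked, 2 were flagged in this way, and chance flags about 1 in 20. TCC library 2 also had the lowest estimated depth, 6900000 fragments. Without it the log2 change was 1.51 for Asf1b (limma adjusted p = 0.00219) and -0.44 for Nap1l1 (adjusted p = 0.111).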

How the results depend on the processing

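Under most alternatives the same 5 chaperone genes were called. With quantile normalization 1 member fell, and 8 genes of the wider list rose and 5 fell. With a minimum change of 0.5, 2 members rose and 1 fell, and in the wider list 3 rose and 4 fell. Without controls 3 and 4, 0 members fell and 5 genes of the wider list fell. In that setting 2 members were lower at an unadjusted p under 0.05 by limma, with no share of all genes given beside it. Among all genes, 1466 rose and 3981 fell, and the rises came to 2637 with median-of-ratios scaling, 2803 with quantile normalization, 503 with the minimum change, 2838 without controls 1 and 2, and 695 without controls 3 and 4. Falls came to 2487 with a mean of at least 5 FPKM, where fewer genes were tested, and 2491 with the minimum change. Leaving out 1 library at a time gave 953 (without control 4) to 1860 (without control 1) rises among all genes, with 971 without control 3, and 3469 to 4180 falls, 3 to 4 members higher and 2 lower, and 4 to 5 genes of the wider list higher and 6 to 12 lower. The share of rises among calls in all genes was 26.9% as deposited, 45.3% with median-of-ratios scaling and 48.7% with quantile normalization. For the members it was 60.0, 66.7 and 75%, from 3 rises and 2 falls, 4 and 2, and 3 and 1. For the wider list it was 38.5, 53.8 and 61.5%, from 5 rises and 8 falls, 7 and 6, and 8 and 5. The shares of both lists thus rest on few calls, and those of the members can move by 1 gene.

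Directions turned for Nap1l1 (0.12 with median-of-ratios scaling, 0.02 without controls 3 and 4), Chaf1a (-0.16) and Nasp (0.30) without controls 3 and 4, and the ratio of Npm2 over Npm1 (-0.14) without controls 3 and 4. The ratio of Npm3 over Npm1 turned to 0.63 with quantile normalization and 0.31 without controls 1 and 2, and ran from -0.68 to 0.38 when 1 library was left out. None of these had passed the threshold, and the cause was not tested. With 1 library left out, the log2 ratio differences ran from 0.49 to 1.20 for Npm2 over Npm1, -0.49 to -0.26 for Asf1b over Asf1a, -2.33 to -1.69 for Chaf1b over Chaf1a and -2.33 to -1.58 for Hira over Chaf1a. Without a pair of controls the smallest exact p is 0.0667, so those settings could not pass. Npm1 also passed the threshold with library weights (adjusted p = 0.0264, a fit that stopped before its convergence tolerance) and without control 4 (adjusted p = 0.0458).

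With the replicate number as a block the 5 member calls stayed, 5605 genes were called against 5447, and the Chaf1b over Chaf1a difference of -2.04 had an adjusted p of 0.208, where 16 sign assignments allow no raw p below 0.125. Deviations of same-numbered libraries correlated at 0.34, 0.05, 0.09 and 0.10 across genes. TCC library 2 correlated best with control 4 (0.08, against 0.05 with control 2), and every other TCC library with its same-numbered control. Most of these margins were small, so the values do not decide whether the numbers mark pairs. The main test did not pair the libraries. Depth limits Npm3 most.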

Other observations

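The transcripts whose log2(FPKM + 1) followed Npm2 most closely over the 8 libraries were Ccdc14 (Pearson r = 0.996, Spearman rho = 0.95), Ncoa4 (r = 0.994, rho = 0.98) and Csad (r = 0.994, rho = 1.00). Ccdc14 was at 43.1, 42.4, 34.6 and 37.7 FPKM in TCC libraries 1 to 4, against 20, 21.6, 11.1 and 10.8 FPKM in controls 1 to 4. These values are a description over libraries that fall into groups, and they share the difference between TCC and control and that between the pairs of controls. For the low Npm3 the closest were Smad2 (r = 0.963, rho = 0.95), Isoc2b (r = 0.961, rho = 0.90) and Pdss2 (r = 0.933, rho = 0.93), which like Npm3 had their lowest TCC value in library 2.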
